A study of Mus musculus with 8 samples.

Results

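The enzymes that make and break down prostaglandins were followed across 3 cell lines from mouse. The lines are of epithelioid hemangioendothelioma (EHE), which is a blood vessel tumour with endothelial features. The 10 genes are Pla2g4a, Ptgs1, Ptgs2, Ptges, Ptges2, Ptges3, Ptgis, Ptgds, Tbxas1 and Hpgd. They were found by symbol among the 55401 gene identifiers of the count table, and all 10 were among the 18882 genes that passed the filter on low counts. The set was selected on measured values of these same libraries: Ptges had been seen to be high in EHE26 against EHE6, and the other 9 genes were added for their place in the pathway. Ptges is therefore described without a test. Polyadenylated RNA was read from 2 libraries of EHE26, 3 of EHE17 and 3 of EHE6. The labels give the name of the line and no treatment. Genotype, strain, passage and whether a line is 1 clone are not given in the sources used here. Nothing says that the libraries of a line came from separate cultures, so each p-value speaks only of how far these libraries differ among themselves, and that spread may be technical.

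Prostanoids are lipid signals made from arachidonic acid. Cytosolic phospholipase A2 (Pla2g4a) frees the fatty acid from membranes, and a cyclooxygenase, COX-1 (Ptgs1) or the inducible COX-2 (Ptgs2), turns it into prostaglandin H2. Terminal synthases then make prostaglandin E2, prostacyclin, prostaglandin D2 or thromboxane, and Hpgd inactivates prostaglandins. Endothelium is known for prostacyclin, which widens vessels and restrains platelets.

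Levels are CPM, counts scaled to a TMM-normalised library size, unless a level per exon length (RPKM) is named. Library totals lay between 44620965 and 96237665 counts. The libraries fell into 2 sets: replicates 1 and 2 of EHE17 and of EHE6 in the first, and both EHE26 libraries with replicate 3 of EHE17 and of EHE6 in the second. The main principal component held 56.2% of the variance and ran from 41.5 to 147.2 in the second set and from -121.4 to -101.8 in the first. No EHE26 library was in the first set, and the labels do not say what the sets are. Values of EHE26 are therefore also set beside replicate 3 of the other lines. All 5 endothelial markers were read in every library: Pecam1 lay between 1179 and 1675 CPM and Cdh5 between 1056 and 4890 CPM. Kdr was at 102 and 46.2 CPM in EHE26, 569, 669 and 243 CPM in EHE17, and 829, 1042 and 22.1 CPM in EHE6. Tek was at 122 and 47.4 CPM in EHE26, 156 to 248 CPM in EHE17 and 56.4 to 424 CPM in EHE6, and Erg at 233 and 121 CPM in EHE26, 233 to 260.0 CPM in EHE17 and 42.0 to 399 CPM in EHE6. In bulk RNA, fewer cells of a type and less RNA per cell cannot be told apart.

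Promoters of 9 of the 10 genes were found in RefSeq (GRCm38.p6), each from 250 bases before to 50 bases after a gene's start. The 3 shown belong to the enzymes of release, COX-2 and prostaglandin E2 synthesis that were higher in EHE26 than in every other library. Capitals mark matches on either strand to 1 of 6 short motifs: the GC box GGGCGG, the cAMP response core TGACGT, the E-box CACGTG, the TATA box TATAAA, the TEAD element GGAATG and the IRF element GAAANNGAA. The Ptges window is chr2:30903248-30903547 on the minus strand, the Ptgs2 window is chr1:150099781-150100080 on the plus strand and the Pla2g4a window is chr1:149961241-149961540 on the minus strand.
Ptges: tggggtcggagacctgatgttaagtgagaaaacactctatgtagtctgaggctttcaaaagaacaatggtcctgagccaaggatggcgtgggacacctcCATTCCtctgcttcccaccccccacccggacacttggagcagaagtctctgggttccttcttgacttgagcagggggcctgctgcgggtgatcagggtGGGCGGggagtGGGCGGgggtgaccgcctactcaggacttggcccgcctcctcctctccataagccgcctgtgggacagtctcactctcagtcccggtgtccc
Ptgs2: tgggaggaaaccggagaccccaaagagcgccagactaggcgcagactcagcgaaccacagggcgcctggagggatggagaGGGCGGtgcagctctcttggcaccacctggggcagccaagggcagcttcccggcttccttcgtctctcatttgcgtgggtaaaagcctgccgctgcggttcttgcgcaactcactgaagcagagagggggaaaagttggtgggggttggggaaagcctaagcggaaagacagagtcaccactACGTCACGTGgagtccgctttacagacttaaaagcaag
Pla2g4a: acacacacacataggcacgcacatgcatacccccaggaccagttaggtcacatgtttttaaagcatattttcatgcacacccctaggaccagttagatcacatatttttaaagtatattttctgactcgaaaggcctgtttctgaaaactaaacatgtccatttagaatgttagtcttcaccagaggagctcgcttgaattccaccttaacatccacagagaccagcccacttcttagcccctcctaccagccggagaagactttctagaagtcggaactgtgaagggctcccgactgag
The Ptges window held 2 GC boxes, at -53 to -48 and -42 to -37 from the start, and a TEAD element at -151 to -146. In the Ptgs2 window a cAMP response core at 12 to 17 overlapped an E-box at 16 to 21, and a GC box stood at -170 to -165. The Pla2g4a window, 1 of 2 that RefSeq gives for the gene, held none of the 6. Over 32817 promoter windows of this length, 35.6% held a GC box, 14.7% a TEAD element, 7.5% a cAMP response core, 7.1% an E-box, 13.6% a TATA box and 8.6% an IRF element. These are matches of letters and were not measured as sites.

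**Figure D1:**
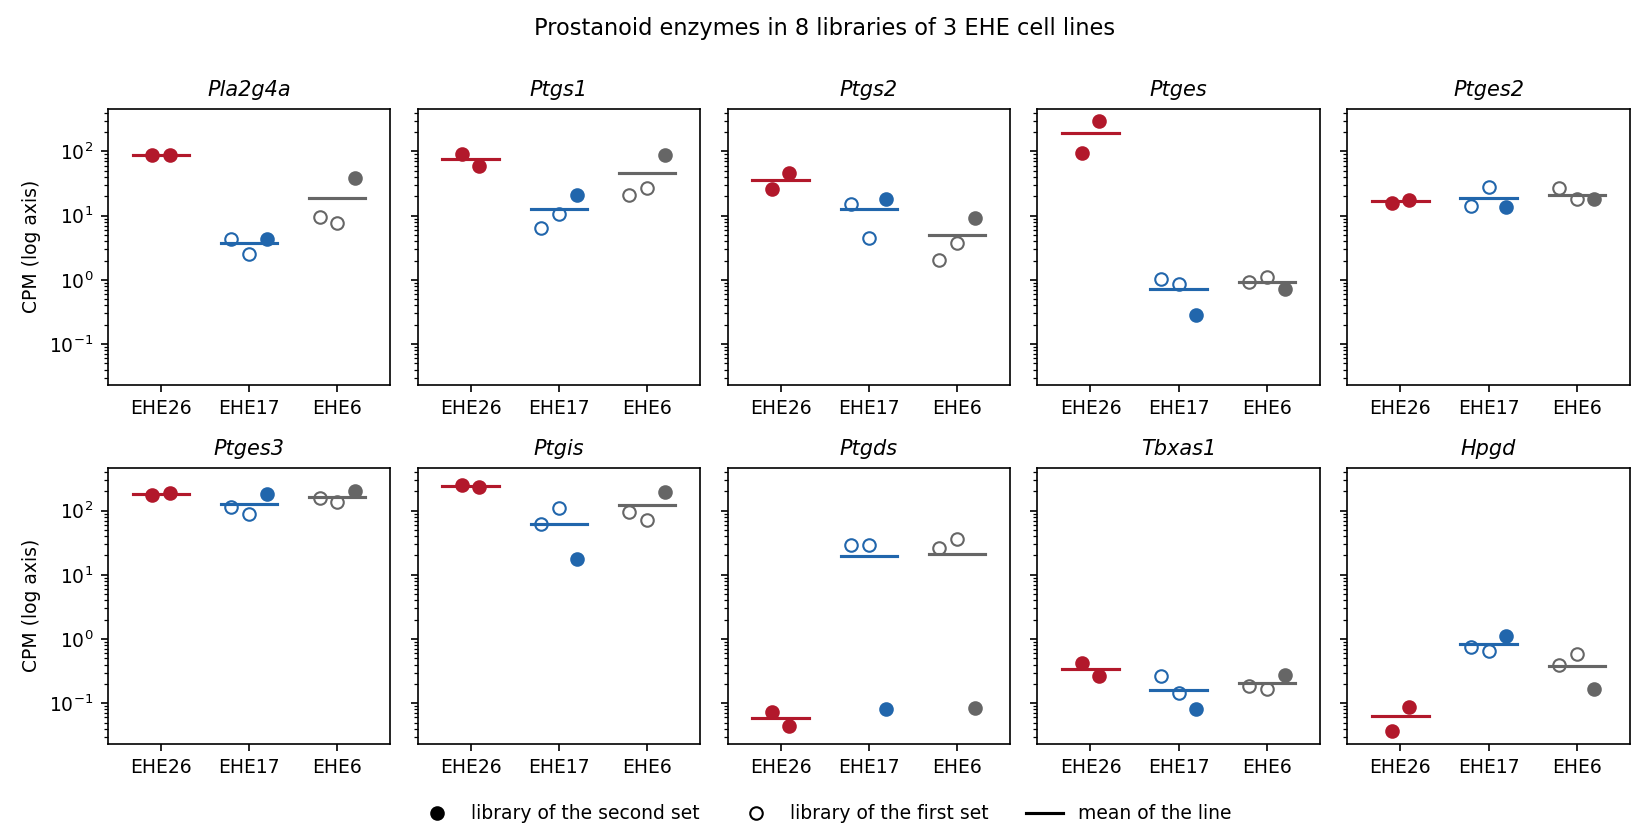
Level of each of the 10 enzymes in every library (CPM, log axes), with EHE26, EHE17 and EHE6 from left to right; filled points are the second set of libraries and open points the first, and lines are the mean of a line. Ptges stood at 94.1 and 295 CPM in EHE26 and between 0.281 and 1.11 CPM in the 6 other libraries.

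At the first step, Pla2g4a, on chromosome 1 (149829618 to 149961290), had 88.9 and 88.7 CPM in EHE26. It had 4.29, 2.52 and 4.41 CPM in EHE17, and 9.55, 7.73 and 38.3 CPM in EHE6. Both EHE26 libraries stood above all 6 others, and all 3 EHE17 libraries below those of EHE6. The log2 fold change was 4.57 ± 0.71 (SE) for EHE26 against EHE17, with an adjusted p of 0.0321 in edgeR's quasi-likelihood test. It was 2.26 ± 0.66 for EHE26 against EHE6 (adjusted p = 0.184) and -2.31 ± 0.62 for EHE17 against EHE6 (adjusted p = 0.381). The call against EHE17 was lost when any 1 library of EHE26 or EHE17 was left out, with log2 fold changes of 4.34 to 4.71 and an adjusted p of 0.0766 to 0.167. Without EHE6 replicate 3 the log2 fold change of EHE26 against EHE6 was 3.36, with an adjusted p of 0.00277. The EHE6 libraries left were all of the first set and those of EHE26 of the second, so line and set cannot be told apart there. Within the second set alone, which holds 1 EHE6 library, the log2 fold change of EHE26 against EHE6 was 1.21. With the set added to the model it was 1.68 (adjusted p = 0.181).

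Ptgs1, the COX-1 gene on chromosome 2, had 92.0 and 59.2 CPM in EHE26, 6.42, 10.7 and 20.7 CPM in EHE17, and 21.1, 27.4 and 89.2 CPM in EHE6. EHE17 lay below both other lines, whereas EHE6 replicate 3 lay within the EHE26 range. Its log2 fold change was 2.58 ± 0.70 for EHE26 against EHE17 (adjusted p = 0.146), 0.72 ± 0.69 for EHE26 against EHE6 (adjusted p = 0.659) and -1.86 ± 0.64 for EHE17 against EHE6 (adjusted p = 0.567). None of these passed the test, and the value against EHE6 was -0.24 within the second set alone. Ptgs2, the COX-2 gene on chromosome 1, had 25.7 and 46.6 CPM in EHE26, 15.4, 4.42 and 18.0 CPM in EHE17, and 2.07, 3.73 and 9.18 CPM in EHE6. Both EHE26 libraries exceeded the others, and EHE17 and EHE6 overlapped. For Ptgs2 the log2 fold change was 2.86 ± 0.75 for EHE26 against EHE6 (adjusted p = 0.151), 1.52 ± 0.73 for EHE26 against EHE17 (adjusted p = 0.331) and 1.33 ± 0.68 for EHE17 against EHE6 (adjusted p = 0.801). Without EHE6 replicate 3 the value for EHE26 against EHE6 was 3.65 and its adjusted p 0.0255, where again line and set cannot be told apart. Within the second set alone, with its 1 EHE6 library, the value for EHE26 against EHE6 was 1.98. With the set added to the model it was 2.22 (adjusted p = 0.195).

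Per exon length, the share of COX-2 in the COX pool was lowest in the EHE6 libraries, and EHE26 and EHE17 overlapped. That share of the summed RPKM of both cyclooxygenase genes was 19.2% and 40.0% in EHE26, 67.0%, 25.9% and 42.4% in EHE17, and 7.69%, 10.3% and 8.03% in EHE6. The means were 29.6% ± 14.8 in EHE26 (SD, n = 2), 45.1% ± 20.7 in EHE17 (SD, n = 3) and 8.69% ± 1.44 in EHE6 (SD, n = 3). Exact two-sided permutation tests gave p = 0.1 for EHE26 against EHE6, p = 0.4 for EHE26 against EHE17 and p = 0.1 for EHE17 against EHE6. Over the 3 comparisons the Benjamini-Hochberg values of these exact tests were 0.15, 0.4 and 0.15. The smallest exact p these group sizes allow is 0.1, so none could pass 0.05.

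**Figure D2:**
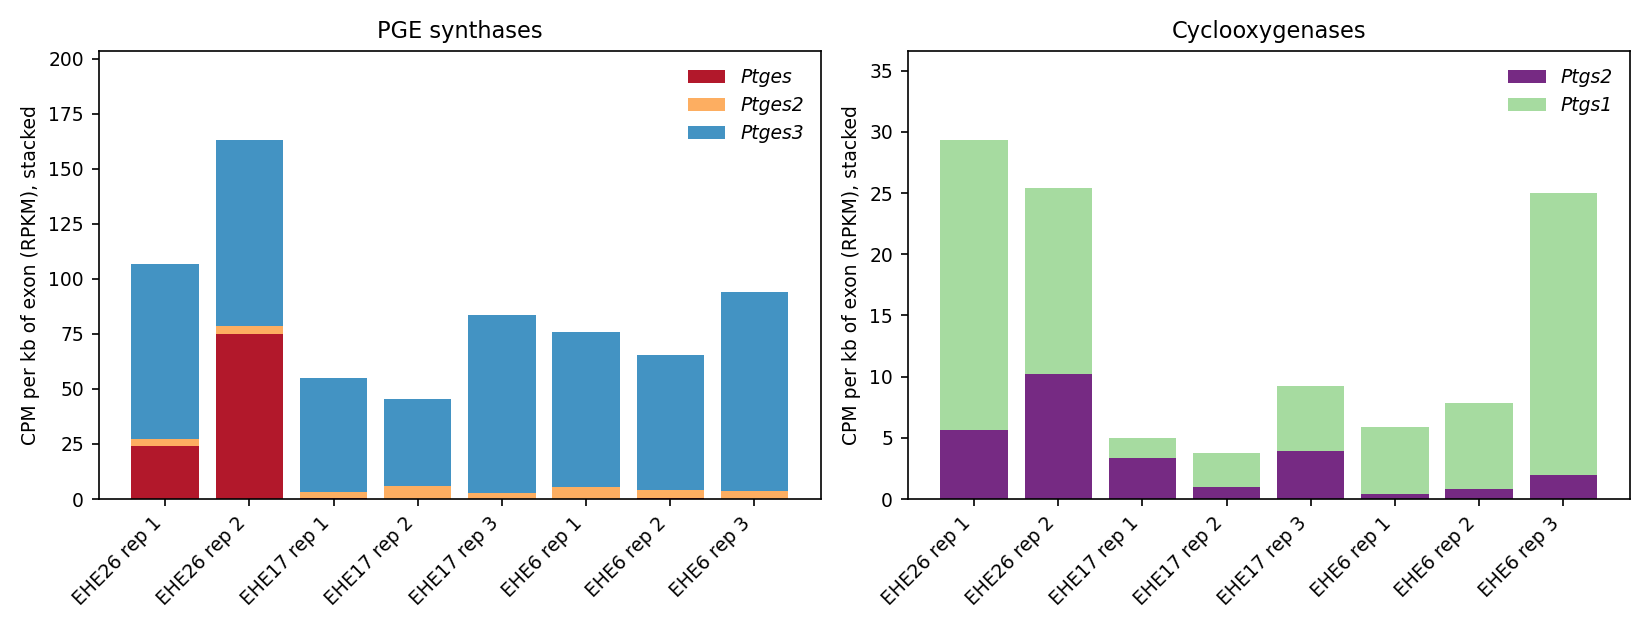
Stacked levels per exon length (RPKM) of the 3 prostaglandin E synthases at the left and of both cyclooxygenases at the right, with 1 bar per library, EHE26 first, then EHE17 and EHE6. COX-2 was 7.69% to 10.3% of the cyclooxygenase RPKM in EHE6, and Ptges was 22.4% and 46.0% of the synthase RPKM in EHE26.

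Among the prostaglandin E synthases, Ptges encodes the inducible membrane enzyme. Its locus is on the minus strand of chromosome 2, from 30889471 to 30929863 in GENCODE M21, and the RefSeq start used above, at 30903297, lies inside that span. It was read by 5114 and 13430 counts in EHE26, 84, 78 and 14 in EHE17, and 69, 79 and 34 in EHE6. As CPM these were 94.1 and 295 in EHE26, 1.04, 0.863 and 0.281 in EHE17, and 0.929, 1.11 and 0.714 in EHE6. The mean was 194 ± 142 CPM in EHE26 (SD, n = 2), 0.729 ± 0.399 in EHE17 (SD, n = 3) and 0.92 ± 0.20 in EHE6 (SD, n = 3). The libraries of EHE26 differed from each other 3.13-fold, EHE17 and EHE6 overlapped, and no library of either came near EHE26. The log2 fold change, given as a description, was 8.04 ± 0.73 for EHE26 against EHE17, 7.72 ± 0.72 for EHE26 against EHE6 and -0.32 ± 0.55 for EHE17 against EHE6. Within the second set, the EHE26 mean was 692 times the level of EHE17 replicate 3 and 272 times that of EHE6 replicate 3.

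The other prostaglandin E synthases were not called in any of the 3 comparisons. Ptges2, a second membrane-associated synthase, had 15.9 and 17.5 CPM in EHE26, 14.2, 28.4 and 13.7 CPM in EHE17, and 27.1, 18.3 and 18.0 CPM in EHE6. Ptges3, the cytosolic synthase also known as the Hsp90 co-chaperone p23, had 177 and 187 CPM in EHE26, 115, 87.9 and 179 CPM in EHE17, and 156, 137 and 200 CPM in EHE6. The log2 fold change of EHE26 against EHE17 was -0.17 ± 0.40 for Ptges2 (adjusted p = 0.850) and 0.51 ± 0.33 for Ptges3 (adjusted p = 0.456). Against EHE6 it was -0.34 ± 0.40 for Ptges2 (adjusted p = 0.733) and 0.15 ± 0.34 for Ptges3 (adjusted p = 0.876). EHE17 against EHE6 gave -0.17 ± 0.36 for Ptges2 (adjusted p = 1.0) and -0.37 ± 0.30 for Ptges3 (adjusted p = 0.993). The direction of Ptges3 against EHE6, and of Ptges2 against EHE17, turned when the set was added to the model, at -0.26 and 0.18. A pseudogene named for Ptges3 held 1392 to 2140 counts a library, so the split of reads between it and Ptges3 is uncertain. Per length, Ptges was 22.4% and 46.0% of the summed RPKM of the 3 synthases in EHE26, 0.0855% to 0.483% in EHE17 and 0.194% to 0.433% in EHE6.

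Ptgis, the prostacyclin synthase of endothelium on chromosome 2, was well read in each line. It had 250 and 232 CPM in EHE26, 61.5, 109 and 17.4 CPM in EHE17, and 96.1, 72.3 and 196 CPM in EHE6. Both EHE26 libraries were above all others, with EHE6 replicate 3 the nearest. The difference on the log2 scale was 1.94 ± 0.69 for EHE26 against EHE17 (adjusted p = 0.237), 0.99 ± 0.69 for EHE26 against EHE6 (adjusted p = 0.523) and -0.95 ± 0.63 for EHE17 against EHE6 (adjusted p = 0.929). Within the second set alone the values were 3.79, 0.29 and -3.50, with adjusted p-values of 0.0173, 0.515 and 0.0288. That fit rests on 1 library each of EHE17 and EHE6, assumed to vary like EHE26. An antisense gene shares 156 exon bases with Ptgis and held 0 to 4 counts a library.

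The fibroblast marker Pdgfra was lowest in the EHE17 libraries, as Pla2g4a and Ptgs1 were. It had 77.5 and 59.8 CPM in EHE26, 1.76, 1.70 and 1.14 CPM in EHE17, and 3.87, 5.21 and 252 CPM in EHE6. The summed level of all 5 fibroblast markers was 291 and 84.2 CPM in EHE26, 10.9 to 63.1 CPM in EHE17 and 34.9 to 261 CPM in EHE6. Col1a1 lay between 1.003 and 7.75 CPM in all 8 libraries, and Lum was at 0 in replicate 3 of EHE17 and of EHE6. Col1a2 ran another way, at 0.129 and 0.132 CPM in EHE26, 7.23, 9.73 and 0.0401 CPM in EHE17, and 8.94, 9.02 and 5.65 CPM in EHE6. Dcn had 206 and 18.0 CPM in EHE26, 46.7, 43.2 and 8.71 CPM in EHE17, and 15.0, 22.5 and 0.966 CPM in EHE6. Dcn was thus lowest in EHE6 replicate 3, where Pdgfra was highest. The pericyte marker Pdgfrb had 63.0 and 28.9 CPM in EHE26, 1.75, 2.14 and 0.401 CPM in EHE17, and 1.41, 1.57 and 22.0 CPM in EHE6. Rgs5 had 7.30 and 67.5 CPM in EHE26, 0.221 to 4.41 CPM in EHE17 and 8.23 to 183 CPM in EHE6. Acta2 ran another way, with 64.6 and 30.7 CPM in EHE26, 7.20 to 54.3 CPM in EHE17, and 659, 268 and 15.1 CPM in EHE6. Myh11 and Cnn1 had at most 1.26 CPM in any library, and less in EHE26 than in EHE6 replicates 1 and 2. The summed level of the 5 smooth muscle and pericyte markers was 135 and 127 CPM in EHE26, 7.82 to 61.5 CPM in EHE17 and 221 to 671 CPM in EHE6. The part of such cells in the levels of Pla2g4a, Ptgs1 and Ptgis was not tested.

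Ptgds, the lipocalin-type prostaglandin D synthase on chromosome 2, followed the set of libraries and not the line. It had 4 and 2 counts in EHE26, 2354, 2672 and 4 in EHE17, and 1948, 2571 and 4 in EHE6. The levels were 0.0736 and 0.0439 CPM in EHE26, 29.3, 29.6 and 0.0803 CPM in EHE17, and 26.2, 36.3 and 0.0840 CPM in EHE6. Every library of the second set was near 0, whichever its line. The log2 fold change was -8.32 ± 3.07 for EHE26 against EHE17 (adjusted p = 0.253), -8.41 ± 3.08 for EHE26 against EHE6 (adjusted p = 0.271) and -0.09 ± 1.75 for EHE17 against EHE6 (adjusted p = 1.0). With the set added to the model, EHE26 stood at -0.41 against EHE17 and -0.49 against EHE6. The epithelial marker Epcam moved with it, at 0.0368 and 0 CPM in EHE26, 3.89, 8.14 and 0 CPM in EHE17, and 9.79, 4.97 and 0 CPM in EHE6. The summed level of the 4 epithelial markers was 2.65 and 28.4 CPM in EHE26, 0.803 to 29.2 CPM in EHE17 and 19.4 to 89.6 CPM in EHE6, with Krt18 the bulk of it in the second set. The part of such cells in the Ptgds level was not tested.

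Tbxas1, the thromboxane synthase of platelets and macrophages, was close to the lower limit of detection. It had 23 and 12 counts in EHE26, 21, 13 and 4 in EHE17, and 14, 12 and 13 in EHE6, or 0.0803 to 0.423 CPM. The lines could not be separated at this depth: its log2 fold change was 1.07 ± 0.79 for EHE26 against EHE17 (adjusted p = 0.512), 0.71 ± 0.79 for EHE26 against EHE6 (adjusted p = 0.718) and -0.36 ± 0.72 for EHE17 against EHE6 (adjusted p = 1.0). The 8 macrophage and leukocyte markers summed to 42.8 and 36.6 CPM in EHE26, 26.7 to 68.9 CPM in EHE17 and 19.0 to 30.0 CPM in EHE6, most of it Lyz2 and, in EHE17 replicate 3, Cd68. Platelet and megakaryocyte markers summed to 17.3 and 17.4 CPM in EHE26, 8.43 to 50.4 CPM in EHE17 and 10.9 to 50.3 CPM in EHE6, most of it Itga2b. Mast cell markers, for a type rich in prostaglandin D2, summed to at most 0.423 CPM, and Fcer1a was at 0 in all 8 libraries.

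Hpgd, the 15-hydroxyprostaglandin dehydrogenase on chromosome 8, ran the opposite way to Pla2g4a. It had 0.0368 and 0.0877 CPM in EHE26, 0.758, 0.653 and 1.10 CPM in EHE17, and 0.391, 0.593 and 0.168 CPM in EHE6. EHE26 was lowest and EHE17 highest without overlap, on 2 and 4 counts in EHE26, 55 to 61 in EHE17 and 8 to 42 in EHE6. The log2 fold change was -3.72 ± 0.93 for EHE26 against EHE17 (adjusted p = 0.122), -2.61 ± 0.89 for EHE26 against EHE6 (adjusted p = 0.250) and 1.11 ± 0.69 for EHE17 against EHE6 (adjusted p = 0.898). None passed the test. Over the 8 libraries, which share line and set, the log2 CPM of Pla2g4a and Hpgd had a Pearson r of -0.95 and that of Pla2g4a and Ptgs1 an r of 0.90.

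**Figure D3:**
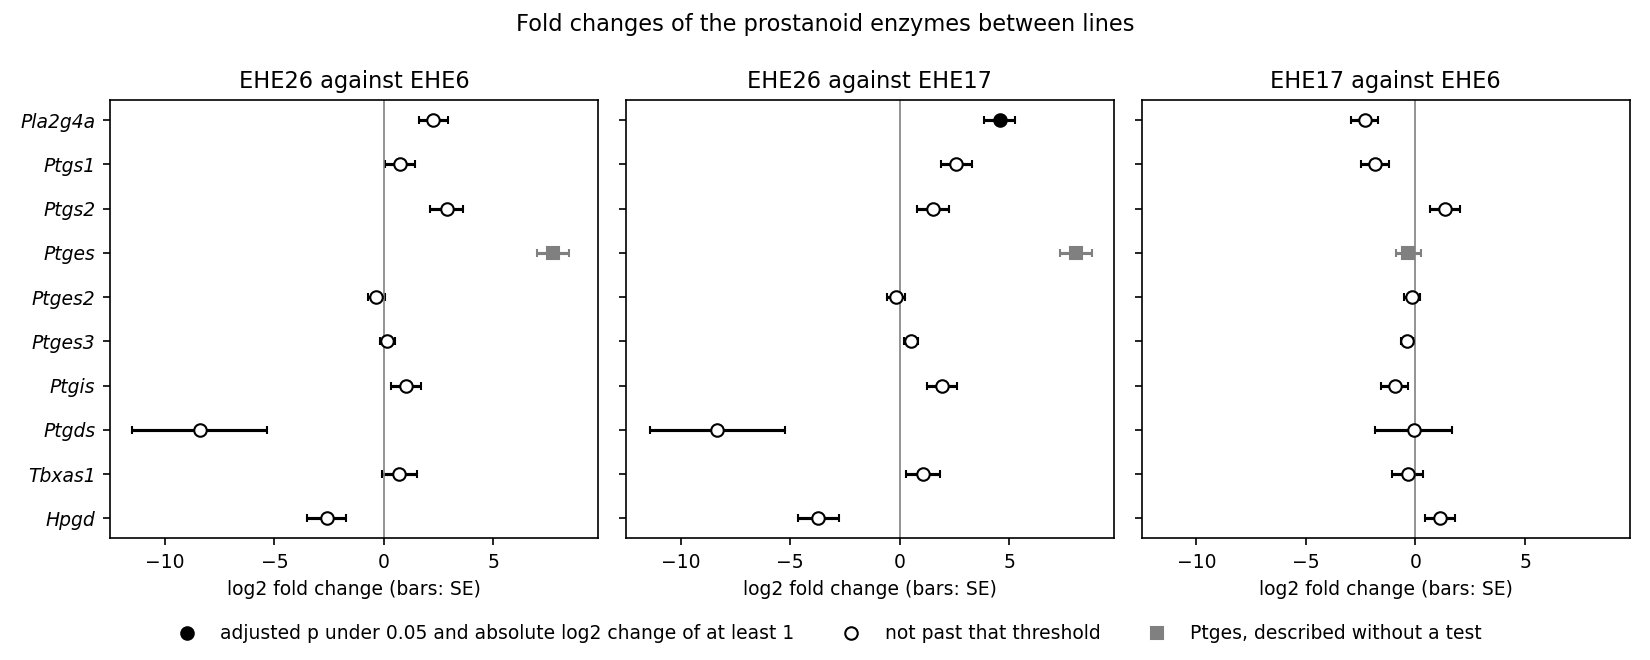
Log2 fold change of each enzyme with its standard error in EHE26 against EHE6, EHE26 against EHE17 and EHE17 against EHE6, zero meaning no difference; filled circles passed an adjusted p of 0.05 at a log2 fold change of 1 or more in size, open circles did not, and grey squares are Ptges, shown without a test. Pla2g4a in EHE26 against EHE17, at 4.57 ± 0.71, is the only filled circle.

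A gene is called where its adjusted p is below 0.05 and its log2 fold change is 1 or more in size. By this rule 1 of the 10 enzymes was higher in EHE26 against EHE6, beside 1.10% of all tested genes. That was Ptges, whose own contrast had selected it, and nothing is read from the count. In EHE26 against EHE17, 2 were called higher, Ptges, again described only, and Pla2g4a, beside 0.890% of all tested genes. In EHE17 against EHE6 edgeR called 0 of the 10, beside 0.143% of all tested genes. In that comparison 2 enzymes, Ptgs1 and Pla2g4a, had an unadjusted p under 0.05, and DESeq2 called 1, Pla2g4a. Both EHE26 libraries were above all 6 others for 4 of the 10, Ptges, Ptgs2, Ptgis and Pla2g4a, beside 9.88% of all tested genes. Ptges is among these by its selection, and nothing is read from the count. They were below all 6 for 2 of the 10, Ptgds and Hpgd, beside 7.81% of all tested genes. For Ptgds this rests on 4 and 2 counts in EHE26, against 4 in EHE17 replicate 3 and 4 in EHE6 replicate 3, so the scaling of the libraries sets it. The median log2 fold change of the 10 was 0.71 in EHE26 against EHE6, 1.30 in EHE26 against EHE17 and -0.34 in EHE17 against EHE6. Over all tested genes the medians were -0.11, -0.11 and -0.03. The 10 include Ptges, selected for its level in EHE26, and nothing is read from their medians. The comparisons share libraries, so their values are not independent of each other.

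Per exon length, the order of the enzymes differed between the lines. In EHE26 the levels were 93.7 ± 4.98 RPKM for Ptgis, 82.1 ± 3.38 for Ptges3, 49.4 ± 36.1 for Ptges, 19.5 ± 5.97 for Ptgs1, 13.9 ± 0.0310 for Pla2g4a, 7.90 ± 3.23 for Ptgs2 and 3.30 ± 0.216 for Ptges2 (SD, n = 2). Neighbours in that order did not overlap. In EHE17, Ptges3 at 57.5 ± 21.1 RPKM and Ptgis at 24.5 ± 17.9 came ahead, and Ptges, at 0.186 ± 0.101, was ninth (SD, n = 3). In EHE6, Ptges3 at 74.0 ± 14.6 RPKM and Ptgis at 47.3 ± 25.6 led, and Ptges, at 0.234 ± 0.0510, was eighth (SD, n = 3). In EHE17 the overlapping neighbours were Ptges3 with Ptgis, Ptgis with Ptgds, Ptgds with Ptges2, Ptges2 with Ptgs1, Ptgs1 with Ptgs2, and Pla2g4a with Hpgd. In EHE6 the overlapping neighbours were Ptges3 with Ptgis, Ptgds with Ptgs1, Ptges2 with Pla2g4a, Pla2g4a with Ptgs2, and Ptges with Hpgd.

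Of 78 related genes in 9 lists (receptors, transporters, other synthases, breakdown enzymes, phospholipases, arachidonate handling, lipoxygenases, epoxygenases and relatives of Ptges), 62 passed the filter on low counts. In EHE26 against EHE6, 1 of 62 was called higher and 0 lower, beside 1.10% of all tested genes called higher. In EHE26 against EHE17, 4 were called higher and 0 lower, beside 0.890% of all tested genes called higher. EHE17 against EHE6 had 0 calls, 10 genes with an unadjusted p under 0.05 and 3 calls by DESeq2. The median log2 fold change of the 62 was -0.07, -0.13 and -0.27 in these comparisons. EHE26 was above all 6 other libraries for 12 of the 62, beside 9.88% of all tested genes, and below them for 7, beside 7.81%.

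Slco2a1, the transporter that carries prostaglandins into cells for breakdown, had 176 and 439 CPM in EHE26, 2.31, 4.07 and 0.843 CPM in EHE17, and 27.05, 30.9 and 51.6 CPM in EHE6. The 3 lines did not overlap. The transporter's log2 fold change was 6.99 ± 0.76 for EHE26 against EHE17 (adjusted p = 0.0101), 3.07 ± 0.65 for EHE26 against EHE6 (adjusted p = 0.0806) and -3.91 ± 0.65 for EHE17 against EHE6 (adjusted p = 0.0971). Pla2g7, which breaks down platelet-activating factor, had 321 and 132 CPM in EHE26, 6.36, 7.39 and 1.42 CPM in EHE17, and 6.10, 9.31 and 6.95 CPM in EHE6. It rose in EHE26 by a log2 fold change of 5.48 ± 0.72 against EHE17 (adjusted p = 0.0164) and 4.92 ± 0.70 against EHE6 (adjusted p = 0.0191). The call against EHE6 was lost without EHE6 replicate 1 or 2, without EHE26 replicate 1 and within the second set, with an adjusted p of 0.0537 to 0.123. Anxa1, annexin A1, known as an inhibitor of phospholipase A2, had 726 and 780 CPM in EHE26, 133, 77.4 and 181 CPM in EHE17, and 338, 301 and 663 CPM in EHE6. EHE26 exceeded every other library, by a log2 fold change of 2.53 ± 0.45 against EHE17 (adjusted p = 0.0491). Alox12, a 12-lipoxygenase that competes for arachidonic acid, had 3.40 and 3.25 CPM in EHE26, 0.120 to 0.332 CPM in EHE17 and 0.564 to 0.902 CPM in EHE6. Its log2 fold change of EHE26 against EHE17 was 4.03 ± 0.66 (adjusted p = 0.0378). With 1 library left out, calls against EHE17 were lost without EHE17 replicate 1 or 2 for all 4 genes. They were lost as well without EHE26 replicate 2 for all 4 and without EHE26 replicate 1 for Pla2g7, Anxa1 and Alox12. Those of Anxa1 and Alox12 were also lost without EHE17 replicate 3 or without EHE6 replicate 1 or 2.

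Of the 9 prostanoid receptors, 8 passed the filter and none was called in any of the 3 comparisons. Ptgir, the prostacyclin receptor, had 9.18 and 8.88 CPM in EHE26, 0.273, 0.0886 and 0.161 CPM in EHE17, and 0.431, 0.593 and 8.59 CPM in EHE6. EHE6 replicate 3 thus stood beside EHE26, and the log2 fold change of EHE26 against EHE17 was 5.68 ± 1.35 (adjusted p = 0.110). Ptgfr, the prostaglandin F receptor, had 0.258 and 0.373 CPM in EHE26, 4.47, 4.26 and 2.87 CPM in EHE17, and 6.44, 7.14 and 0.357 CPM in EHE6. For EHE26 against EHE17 the log2 fold change was -3.61 ± 1.17 (adjusted p = 0.203). Ptger4, a receptor for prostaglandin E2, had 3.66 and 4.91 CPM in EHE26, 0.509, 0.133 and 0.843 CPM in EHE17, and 0.876, 0.691 and 2.92 CPM in EHE6, and its log2 fold change of EHE26 against EHE17 was 3.12 ± 0.92 (adjusted p = 0.170).

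**Figure D4:**
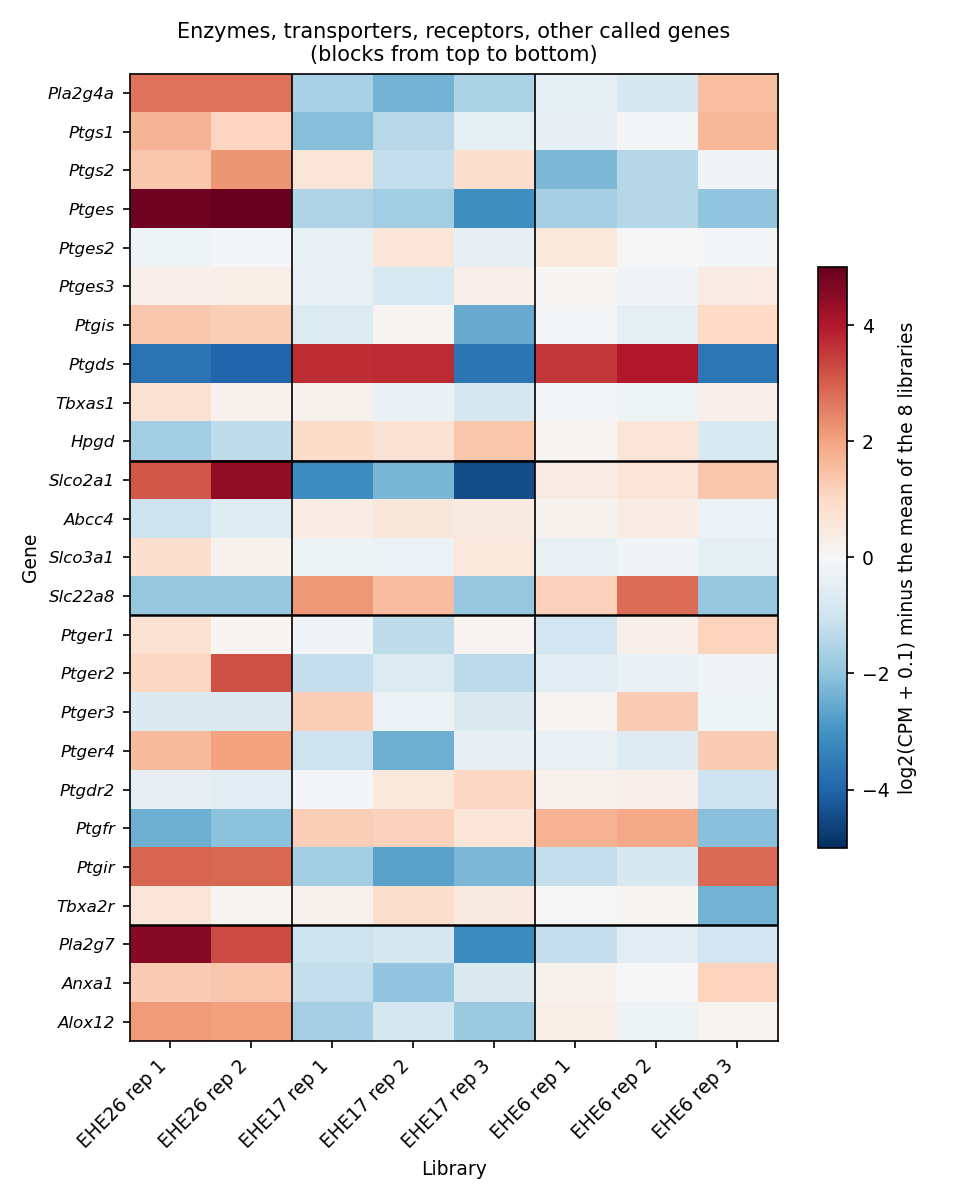
Heat map of the enzymes, prostaglandin transporters, prostanoid receptors that passed the filter and other called related genes in every library, as log2(CPM + 0.1) minus the mean of the 8 libraries; colours end at -5 and 5, and columns run EHE26, EHE17, EHE6. Slco2a1 and Ptges are high in both EHE26 columns, and Ptgds is low in the second set of libraries.

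The other named genes of these lists were not called in the 3 comparisons. Among breakdown enzymes, Ptgr1, a prostaglandin reductase, had 0.405 and 1.14 CPM in EHE26, 3.67 to 6.62 CPM in EHE17 and 3.91 to 5.06 CPM in EHE6, while Zadh2 and Ptgr2 lay between 17.2 and 132 CPM. Abcc4, an exporter of prostaglandins, had 20.1 and 27.2 CPM in EHE26, 54.4 to 61.3 CPM in EHE17 and 33.6 to 54.2 CPM in EHE6. Cbr1, a carbonyl reductase that converts prostaglandin E2, had 13.9 and 11.8 CPM in EHE26, 31.5 to 51.1 CPM in EHE17 and 14.9 to 39.4 CPM in EHE6. In Ptgr1, Abcc4 and Cbr1 both EHE26 libraries were below every other library, and in Zadh2 and Ptgr2 they were not. Pla2g6, the calcium-independent phospholipase A2, was also lowest in EHE26, with 15.7 and 15.0 CPM in EHE26, 33.8 to 86.4 CPM in EHE17 and 27.3 to 126 CPM in EHE6. Of the microsomal glutathione transferases, which belong to the same protein superfamily as Ptges, Mgst1 had 62.3 and 19.4 CPM in EHE26, 74.7 to 127 CPM in EHE17 and 5.02 to 39.3 CPM in EHE6, so that EHE17 stood above both other lines. Mgst3 had 13.0 and 11.3 CPM in EHE26, 3.80 to 8.47 CPM in EHE17 and 2.06 to 24.3 CPM in EHE6, and the lines overlapped in Mgst2.

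The genes most like an enzyme were those with the highest Pearson r of log2 CPM over the 8 libraries among 14442 genes, given as a description with no p. For Ptges the r of Hpse, Lce3c, Serpinb2, Ifitm6 and Gvin1 was 0.983 to 0.995, with Spearman's rho of 0.619 for Hpse and 0.643 for Gvin1. Ranked by Spearman's rho, 0 of the 5 were still among the closest 5 or those tied with them for Ptges, 1 of 5 for Ptgs1, 2 of 5 for Ptgs2 and 1 of 5 for Ptgis. Hpse, heparanase, had 24.0 and 59.8 CPM in EHE26, 0.602 to 1.11 CPM in EHE17 and 0.902 to 1.26 CPM in EHE6. Serpinb2, plasminogen activator inhibitor 2, had 1.01 and 6.43 CPM in EHE26 and at most 0.0282 CPM in EHE17 and EHE6. Lce3c and Ifitm6 were close to the lower limit of detection. Lce3c had 0.442 and 0.877 CPM in EHE26 and 0 in EHE17 and EHE6. Ifitm6 had 0.221 and 0.263 CPM in EHE26 and at most 0.0141 CPM in EHE17 and EHE6. For Ptgs1 the closest were Slc7a5, an amino acid transporter, at an r of 0.987, and Jade2 at 0.981. For Ptgs2 they were Kantr and Grem1, the BMP antagonist gremlin, both at 0.979. Grem1 had 23.7 and 142 CPM in EHE26, 5.14, 0.221 and 38.04 CPM in EHE17, and 0.0539, 0.0988 and 2.82 CPM in EHE6. For Ptgis the closest was Efemp1, an extracellular matrix protein, at 0.986. These lists follow 8 libraries with shared lines and sets.

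None of the 3 nearest protein-coding genes on each side of Ptges had both EHE26 libraries above all others, as Ptges did. Ntmt1, Asb6, Tor1b, Tor1a and BC005624 lay between 27.3 and 80.4 CPM in all 8 libraries, with log2 fold changes of EHE26 against EHE6 between -0.56 for Asb6 and 0.36 for Tor1a. Prrx2, a homeobox gene 8220 bases away, had 5.08 and 17.6 CPM in EHE26, 0.609, 0.598 and 0.441 CPM in EHE17, and 0.108, 0.127 and 7.50 CPM in EHE6. Its EHE26 libraries thus stood above all others but EHE6 replicate 3, which lay between them. On the log2 scale Prrx2 differed by 2.14 ± 1.55 for EHE26 against EHE6 (adjusted p = 0.543) and 4.36 ± 1.67 for EHE26 against EHE17 (adjusted p = 0.262). None of the 6 neighbours was called in any of the 3 comparisons.

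**Figure D5:**
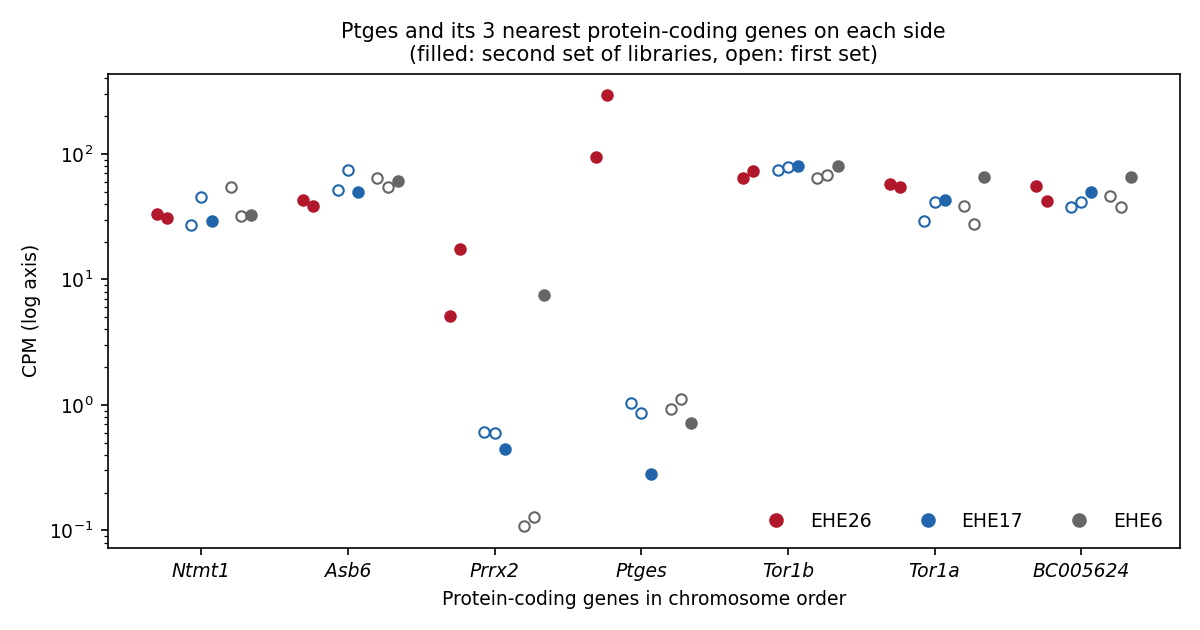
Level of Ptges and its 3 nearest protein-coding genes on each side, in the order of the chromosome, in every library (CPM, log axis), coloured by line, with filled points for the second set of libraries and open points for the first. Ptges stands apart by line, with 94.1 and 295 CPM in EHE26 and at most 1.11 CPM elsewhere, and Prrx2 is the neighbour with the widest spread.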

How the data were processed

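The deposited tables hold raw, whole-number counts for Ensembl genes that the authors made from reads aligned with HISAT2 to mm10, per the submitters' processing notes. The HISAT2 version, the counting tool, its annotation and its strand setting are not given in the sources used here. Per the labels, RNA was selected by polyA tail. The file of each sample equals its column in the series table (8 of 8). GENCODE M21 (GRCm38) gave symbols, positions and the union of exons used for RPKM, and matched 55141 of 55401 identifiers.

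Counts were TMM-normalised, filtered with filterByExpr and tested by quasi-likelihood with edgeR 4.0.16 (R 4.3.3). The model used the line and no other term, and all 8 libraries entered it. Benjamini-Hochberg adjustment ran over 18882 genes. Calls needed an adjusted p below 0.05 and a log2 fold change of 1 or more in size. Alternatives were DESeq2 1.42.0, RLE size factors, no filter on low counts, other sample subsets, a replicate block and a term for the set. The precision is limited by 2 or 3 libraries a line and, for genes of few counts, by depth.

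The members and lists were chosen with earlier results of these data known. The related genes named are those called and the 3 most abundant of each list, with values for a selection of them. The receptors Ptger2 and Tbxa2r, under other observations, were named outside this rule. Likeness was taken on log2 CPM (prior count 2). Departures of same-numbered libraries of EHE17 and EHE6 from their line means correlated at 0.132, 0.180 and 0.574 across genes. Those of replicates 1 and 2 with crossed numbers correlated more closely, at 0.536 and 0.623. A pairing by number was therefore not shown for these lines, nor for EHE26. Values in the text are from the model without the block unless another setting is named.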

Additional observations from a re-analysis of the deposited data

How the results depend on the processing

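Over 16 alternatives the log2 fold change of Ptges ran between 6.69 and 8.45 in EHE26 against EHE6 and between 7.01 and 9.42 in EHE26 against EHE17, as a description of a gene selected on its level in EHE26. Pla2g4a in EHE26 against EHE17 kept its call in 11 of 16 (3.60 to 5.01). Against EHE17, Slco2a1 kept its call in 13, Pla2g7 in 12, Anxa1 in 9 and Alox12 in 9 of 16, and Pla2g7 against EHE6 in 12 of 16.

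Enzymes called in EHE26 against EHE6, 1 in the fit reported, numbered 2 with no filter on low counts, 4 with DESeq2, 7 with replicates 1 and 2 of every line alone and 1 to 3 with 1 library left out. In EHE26 against EHE17, 2 in the fit reported, they numbered 5 with DESeq2, 6 with replicates 1 and 2 alone and 0 to 4 with 1 library left out. In EHE17 against EHE6, 0 in the fit reported, they numbered 1 with DESeq2 and 2 within the second set alone (Pla2g4a and Ptgis). The subsets "replicates 1 and 2" and "second set alone" were chosen after seeing the data. Among replicates 1 and 2, EHE26 is all of the second set and the other lines all of the first. Line and set therefore cannot be told apart there for EHE26. The same holds for EHE26 against EHE6 without EHE6 replicate 3, and against EHE17 without EHE17 replicate 3. Fits within the second set rest on 1 library each of EHE17 and EHE6, assumed to vary like EHE26.

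Related genes called in EHE26 against EHE6 numbered 3 with no filter, 2 with the set as a term, 31 with replicates 1 and 2 alone, 0 within the second set, 9 with DESeq2 and 0 to 14 with 1 library left out. In EHE26 against EHE17 they numbered 7 with no filter, 7 with only the 2 lines, 30 with replicates 1 and 2, 7 within the second set, 16 with DESeq2 and 0 to 17 with 1 library left out. In EHE17 against EHE6 they numbered 1 with no filter, 1 with the set as a term, 1 with replicates 1 and 2, 5 within the second set and 3 with DESeq2.

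All genes called in EHE26 against EHE6, 237 in the fit reported, numbered 547 with no filter, 356 with the set as a term, 126 with only the 2 lines, 4302 with replicates 1 and 2, 1562 with DESeq2 and 65 to 1632 with 1 library left out. In EHE26 against EHE17, 203 in the fit reported, they numbered 745, 319, 764, 4150 and 1685 under those settings, 612 within the second set and 2 to 1415 with 1 library left out. In EHE17 against EHE6, 27 in the fit reported, they numbered 142, 102, 7, 147 and 390, 473 within the second set and 1 to 54 with 1 library left out. With replicates 1 and 2, line and set cannot be told apart for EHE26. Nor can they for EHE26 against EHE6 without EHE6 replicate 3, the fit that gave 1632. The cause of the other differences in these counts was not tested.

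The replicate block, a pairing by replicate number, gave 4 enzymes, 5 related genes and 1459 genes in all for EHE26 against EHE6, and 4, 18 and 1860 for EHE26 against EHE17, where the numbers did not pair the libraries. For EHE17 against EHE6 it gave 0 enzymes and changed no other call of an enzyme. Crossed numbers of these lines departed together more closely, at r 0.536 for EHE17 replicate 2 with EHE6 replicate 1 and 0.623 for EHE17 replicate 1 with EHE6 replicate 2.

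Directions that turned were those of changes that had not passed the test. With the set as a term, and within the second set alone, EHE26 against EHE6 was -0.26 and -0.13 for Ptges3 and -0.051 and -0.24 for Ptgs1, and EHE26 against EHE17 was 0.18 and 0.28 for Ptges2. With replicates 1 and 2 alone, EHE17 against EHE6 was 0.041 for Ptgis and 0.18 for Tbxas1. With 1 library left out, Ptges2 in EHE26 against EHE17 ran between -0.35 and 0.24, and in EHE17 against EHE6 Ptges ran between -0.66 and 0.047, Ptges2 between -0.59 and 0.050 and Ptgds between -0.65 and 0.58. Of 477 recomputed log2 fold changes of the enzymes, 423 kept direction and side of the threshold, 32 passed it newly, 7 lost it and 15 turned.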

Other observations

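Ptger2, another receptor for prostaglandin E2, had 0.405 and 2.15 CPM in EHE26, 0.0124, 0.0553 and 0 CPM in EHE17, and 0.0673, 0.0988 and 0.126 CPM in EHE6. Both EHE26 libraries lay above all others. The counts of Ptger2 were 22 and 98 in EHE26, 1, 5 and 0 in EHE17, and 5, 7 and 6 in EHE6. All 3 EHE17 libraries lay below those of EHE6 in CPM. EHE17 replicate 2 and EHE6 replicate 1 both had 5 counts, so the scaling of the libraries sets that order. The log2 fold change of Ptger2 in EHE26 against EHE17 was 5.59 ± 1.24 with an adjusted p of 0.0893 in edgeR, which did not pass the threshold. Tbxa2r, the thromboxane receptor, stood between 0.0840 and 1.67 CPM. EHE26 and EHE17 overlapped, and every library of both stood above those of EHE6. The margin was narrow, at 0.921 CPM in EHE26 replicate 2 and 0.917 CPM in EHE6 replicate 2. Ltc4s, the leukotriene C4 synthase and a protein relative of Ptges, had 0.497 and 0.132 CPM in EHE26, 2.30, 4.49 and 2.21 CPM in EHE17, and 2.16, 2.88 and 0.294 CPM in EHE6. Its log2 fold change of EHE26 against EHE17 was -3.24 ± 1.11 (adjusted p = 0.225). Akr1b3, an aldose reductase able to make prostaglandin F2-alpha, had 80.3 and 86.5 CPM in EHE26, 118, 142 and 363 CPM in EHE17, and 117, 73.4 and 111 CPM in EHE6, and was not called in any of the 3 comparisons.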
